A study of Mus musculus with 4 samples.

Results

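Lung cells of mice that had received lipopolysaccharide (LPS, a component of the bacterial outer membrane that sets off acute lung inflammation) and then low-dose X-rays to the chest (LPS+RT) were set against lung cells of mice given phosphate-buffered saline (PBS) and no irradiation. These 2 libraries are the opposite corners of a study of 4 droplet single-cell RNA libraries, 1 per group. The cells were taken by a rule: barcodes with at least 500 UMIs (unique molecular identifiers, tags that let each captured RNA molecule be counted 1 time), at least 200 genes and at most 10% of UMIs from mitochondrial genes. The rule kept 18956 of the 34440 barcodes that pass it in all 4 libraries. After removal of 1377 likely doublets, 17579 of 32110 cells were described, 9154 from LPS+RT and 8425 from PBS. The question was which genes and cell shares of each type were at the PBS level after both treatments and which differed.

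All mice were C57BL/6 wild-type males of 6 to 7 weeks. In the PBS and PBS+RT groups 100 µL of PBS was instilled into the trachea, and in the LPS and LPS+RT groups 200 µg of LPS from E. coli. Mice of PBS+RT and LPS+RT received 1 Gy of X-rays to the thorax on the following day. Lungs of all groups were taken 48 hours after the instillation, which is 24 hours after irradiation. Dissociated cells were enriched for mononuclear cells on Ficoll of grade 1.084, a density step that removes part of the granulocytes, and were loaded on the 10x 3′ kit of version 3.1 with a target of 10000 cells. The labels do not give the number of mice behind a library.

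Lipopolysaccharide is sensed by Toll-like receptor 4, and the NF-kB factors it activates switch on cytokines and chemokines that draw neutrophils and monocytes into the lung. T and NK cells then release interferon-gamma, which acts on neighboring cells and turns on guanylate-binding proteins, the chemokines Cxcl9 and Cxcl10 and antigen presentation. X-rays break DNA and activate p53, which induces the cell-cycle inhibitor Cdkn1a, its own antagonist Mdm2 and pro-apoptotic genes such as Bax.

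The LPS+RT library held 10996 barcodes with 78669568 UMIs and the PBS library 10083 with 65995600, and the median cell had 4024 and 3964 UMIs. With 1 library per group there is no replicate check, so no test was made, and every interval below is an exact 95% interval that covers counting error only. LPS+RT differs from PBS by both treatments at once, and which of them a difference belongs to cannot be told apart from this pair, so the values in LPS and in PBS+RT stand beside it. LPS against PBS and LPS+RT against PBS share the PBS library. Expression is given in CPM, that is, a gene's UMIs over all UMIs of its cell type and library, scaled to a total of 1000000. For 13 types compared gene by gene, every marker on the list was detected in both libraries, down to 15.5 CPM for the lowest marker of large vessel endothelium in PBS. Whether libraries share cell barcodes was not analysed here.

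Among all cells, neutrophils, the first granulocytes to enter inflamed tissue, differed most among the named types with at least 50 cells in both libraries. There were 69 of 8425 cells in PBS (0.819%) and 571 of 9154 in LPS+RT (6.24%), with 34.1% in LPS and 1.89% in PBS+RT. The share in LPS+RT was 7.62-fold above PBS (interval 5.93 to 9.93), and 4.54-fold with finer clusters (resolution 3). At that resolution a cluster with leading genes of a neutrophil cluster (Wfdc21 and Asprv1) stayed unnamed, with 170 LPS+RT and 4 PBS cells. Neutrophils are among the cells that the Ficoll step depletes, so these shares are not those of the tissue. Inflammatory macrophages, named from Nos2, Arg1, Spp1 and related genes, were 120 cells (1.31%) in LPS+RT, 548 (6.46%) in LPS and 2 in PBS+RT. None were found among the 8425 PBS cells, which allows a share of up to 0.0356% at a floor of 3 cells. Against that floor the share in LPS+RT was at least 36.8-fold higher, and the exact interval of the ratio began at 29.5-fold. Interstitial macrophages, the C1q-positive macrophages of the lung tissue, were 2.52% in LPS+RT, 0.843% in PBS and 2.61% in LPS, 2.99-fold above PBS (2.29 to 3.96).

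The gas-exchange and supporting cells stood closer to PBS. General capillary cells, the endothelium with stem-like repair capacity, were 17.5% in LPS+RT, 21.2% in PBS, 9.35% in LPS and 28.0% in PBS+RT, 1.21-fold below PBS (1.13 to 1.29). Aerocytes, the capillary cells specialized for gas exchange, were 7.34% against 9.10%, with 3.03% in LPS. Alveolar fibroblasts were 11.7% against 12.8%, with 5.03% in LPS. Alveolar type 1 cells, the flat epithelium of the air spaces, were 3.21% against 4.26%, with 1.38% in LPS. Alveolar macrophages, the resident phagocytes of the air spaces, were 8.73% against 7.61%, with 2.50% in LPS and 11.3% in PBS+RT. In all, 22 named types had at least 50 cells in either library, and 13 of them were within 1.5-fold of PBS in LPS+RT.

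Of these 22 types, 8 were at least 2-fold from PBS in LPS and within 1.5-fold in LPS+RT, and 8 others were at least 2-fold from PBS in LPS+RT. The second group also held types below PBS. Platelets, anucleate cells of the clotting system, were 3.43% in LPS+RT and 7.79% in PBS, with 1.47% in LPS and 1.79% in PBS+RT. Pericytes, the contractile cells around capillaries, were 0.929% against 2.17%, 2.34-fold lower, with 0.884% in LPS. Club cells, the secretory cells of the airways, were 0.885% against 2.04%, with 0.813% in LPS and 0.992% in PBS+RT. Adventitial fibroblasts, which sheathe larger vessels and airways, were 0.535% against 1.64%, and erythroid cells 0.404% against 1.46%. With likely doublets kept, adventitial fibroblasts were 88 of 9917 barcodes in LPS+RT and 152 of 9039 in PBS, less than 2-fold apart. Their place in this group thus depends on the doublet call. Lymphocytes lay nearer to PBS: NK cells were 3.63% against 2.17%, T cells 5.68% against 4.46% and B cells 4.94% against 6.35%. Cells in clusters that stayed unnamed were 14.7% in LPS+RT, 6.86% in PBS and 10.2% in LPS. They formed clusters 0 and 18. Cluster 0, with a median of 796.5 UMIs per cell, held 1024 LPS+RT, 571 PBS, 439 LPS and 272 PBS+RT cells. At resolution 3 a cluster that shares leading genes with it (C130074G19Rik, Jcad and Unc45b) was named general capillary by 5 of 6 markers. It held 896 LPS+RT and 476 PBS cells, and the share ratio of general capillary cells, LPS+RT over PBS, was then 1.01. Cluster 18, with a median of 4279 UMIs, held 321 LPS+RT, 7 PBS, 426 LPS and 0 PBS+RT cells, so nearly all of its cells came from the inflamed libraries.

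**Figure D1:**
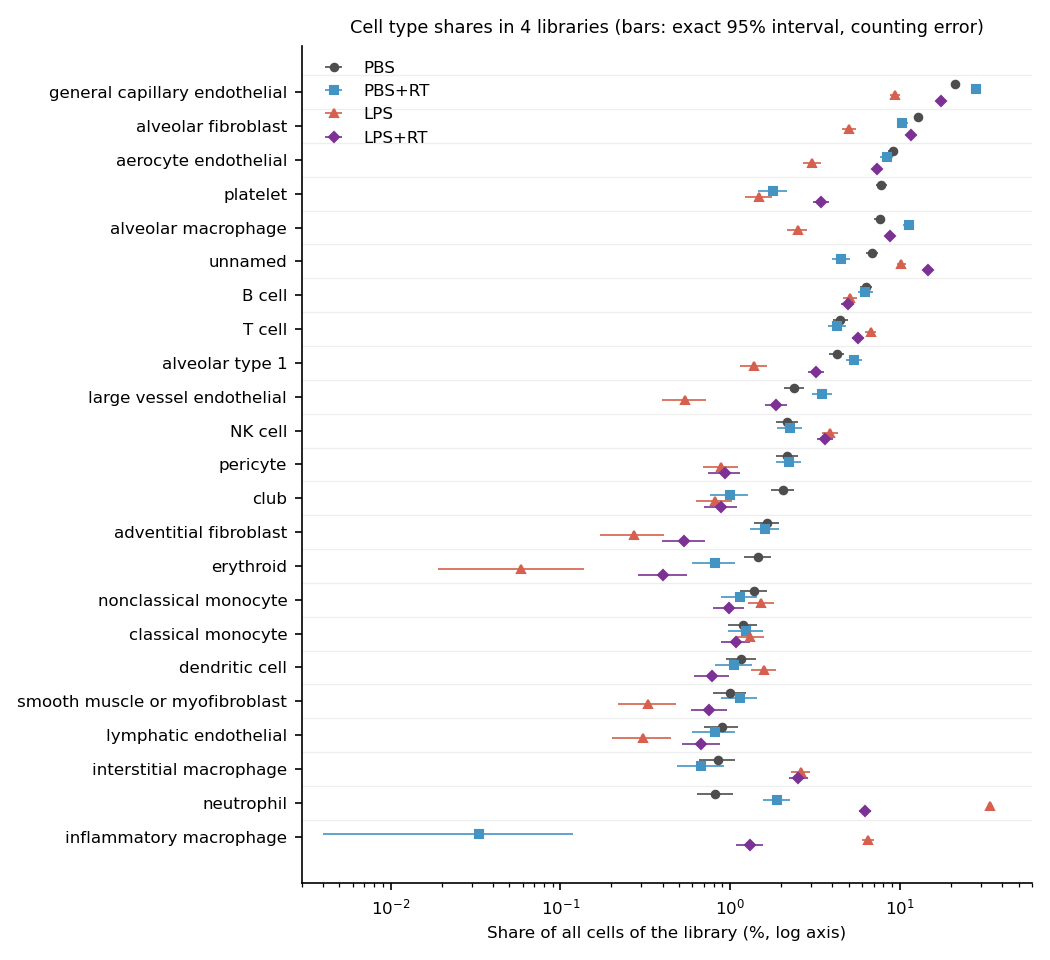
Share of all cells of each library (%, log axis) for each cell type, with 1 point per library and bars for the exact 95% interval of counting error. Neutrophils run from 0.819% in PBS over 6.24% in LPS+RT to 34.1% in LPS, while for general capillary cells LPS+RT (17.5%) lies close to PBS (21.2%) and LPS lies at 9.35%; inflammatory macrophages have no PBS point because no cell was found there.

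The return of the structural types depends on the denominator, because named leukocytes were 26.3% of all cells in PBS, 66.0% in LPS and 36.1% in LPS+RT. Among endothelial, mesenchymal and epithelial cells only (4856 in PBS, 4158 in LPS+RT and 1886 in LPS; a denominator added after the data were seen), general capillary cells were 38.6% in LPS+RT, 36.7% in PBS and 42.1% in LPS. Aerocytes were then 16.2%, 15.8% and 13.6%, and alveolar fibroblasts 25.7%, 22.3% and 22.6%. On this scale LPS was thus within 2-fold of PBS for these types as well, and there was no departure to return from. Pericytes (2.04% against 3.77%), club cells (1.95% against 3.54%) and adventitial fibroblasts (1.18% against 2.84%) kept a share below PBS on this scale too. Among leukocytes, neutrophils were 17.3% in LPS+RT, 3.12% in PBS and 51.6% in LPS, and B cells 13.7%, 24.2% and 7.71%.

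Gene by gene, 10 types had at least 100 cells in both libraries and gave 60954 pairs of a type and a gene that reached 20 CPM and 30 UMIs in whichever library was higher. Of these, 88.6% differed by less than 1.5-fold between LPS+RT and PBS, 796 (1.31%) were at least 2-fold higher in LPS+RT and 1069 (1.75%) at least 2-fold lower. Of the 1501 pairs that were at least 2-fold higher in LPS than in PBS, at a stricter minimum of 50 CPM, 736 (49.0%) were within 1.5-fold of PBS in LPS+RT, which is called back at the PBS level here. A further 335 (22.3%) were still at least 2-fold higher, which is called staying different, and 375 lay between. Of the 1132 pairs lower in LPS, 699 (61.8%) were back and 142 (12.5%) stayed different. Another 327 pairs were at least 2-fold from PBS in LPS+RT and less than 1.5-fold from it in LPS, 115 higher and 212 lower. Of these, 236 were in alveolar type 1 cells.

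The types differed in how much was back. Of genes higher in LPS, the share that was back was 69.3% in large vessel endothelium (with only 46 cells in LPS), 63.7% in NK cells and 59.8% in general capillary cells, and it was 26.7% in alveolar macrophages, where 110 of 266 genes stayed higher. In 3 types with 50 to 99 cells in the smaller library, added after the counts were seen, it was 45.4% in classical monocytes (99 of 218), 16.9% in interstitial macrophages (46 of 273) and 13.1% in neutrophils (92 of 702).

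**Figure D2:**
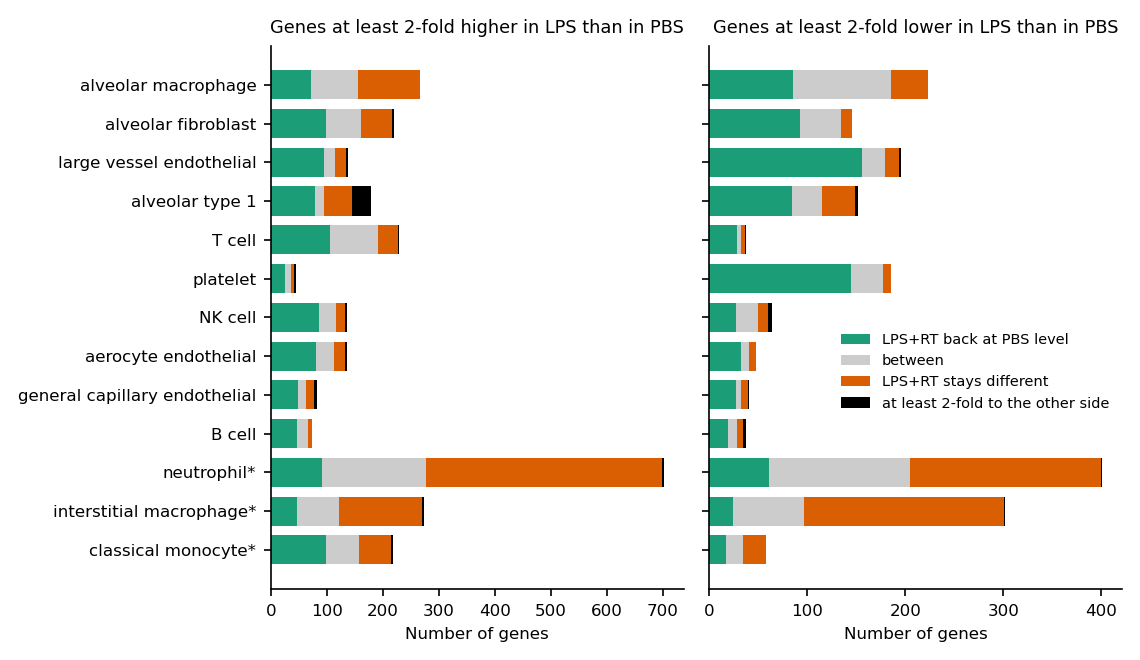
Number of genes at least 2-fold higher (left) or lower (right) in LPS than in PBS in each cell type, split by where LPS+RT lies: within 1.5-fold of PBS (back), between, still at least 2-fold on the same side (stays different) or at least 1.5-fold on the other side. The legend words this last group as 2-fold, but its limit was 1.5-fold. Neutrophils, interstitial macrophages and alveolar macrophages show the longest segments of genes that stay different on the left, and the endothelial types show mostly genes that are back; an asterisk marks the types added after the counts were seen.

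The gene lists differed in how far they stood from PBS. Interferon-gamma response genes gave 83 measured pairs over the 10 types, of which 71 (85.5%) were within 1.5-fold of PBS in LPS+RT, against 88.6% of all genes tested, and 7 were at least 2-fold higher, where LPS had 55 higher. MHC class I and immunoproteasome genes were within 1.5-fold in 104 of 107. The p53 targets had 25 of 117 higher and 1 lower, against 7 higher in LPS. NF-kB cytokines and chemokines had 29 of 77 higher and 0 lower, against 45 higher in LPS, and acute phase genes had 14 of 24 higher. Over all genes tested the higher share was 1.31%.

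Many members of the NF-kB and acute phase lists stood low in the type concerned and high in another type of the same library. Without members below 1/5 of their highest level in another type, 5 higher NF-kB pairs were left of 29 and 2 acute phase pairs of 14, while 21 of the 25 p53 pairs were left. Sums of the marker lists of other types moved as well. Erythroid markers were lower in LPS+RT in 11 of 13 types (48.9 to 7135 CPM in LPS+RT and 361 to 10005 in PBS), and alveolar macrophage markers were higher in 9 of 9 types that are not macrophages, monocytes or neutrophils (201 to 1629 against 117 to 430). In interstitial macrophages these markers were lower (207 against 713), as in neutrophils (1032 against 2373), and in classical monocytes they were at 1884 against 1676. Neutrophil markers were higher in 6 of the same 9 types (58.3 to 593 against 51.6 to 717) and alveolar type 2 markers lower in 10 of 13 (74.0 to 886 against 95.9 to 1623). Their part in the differences below was not tested.

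**Figure D3:**
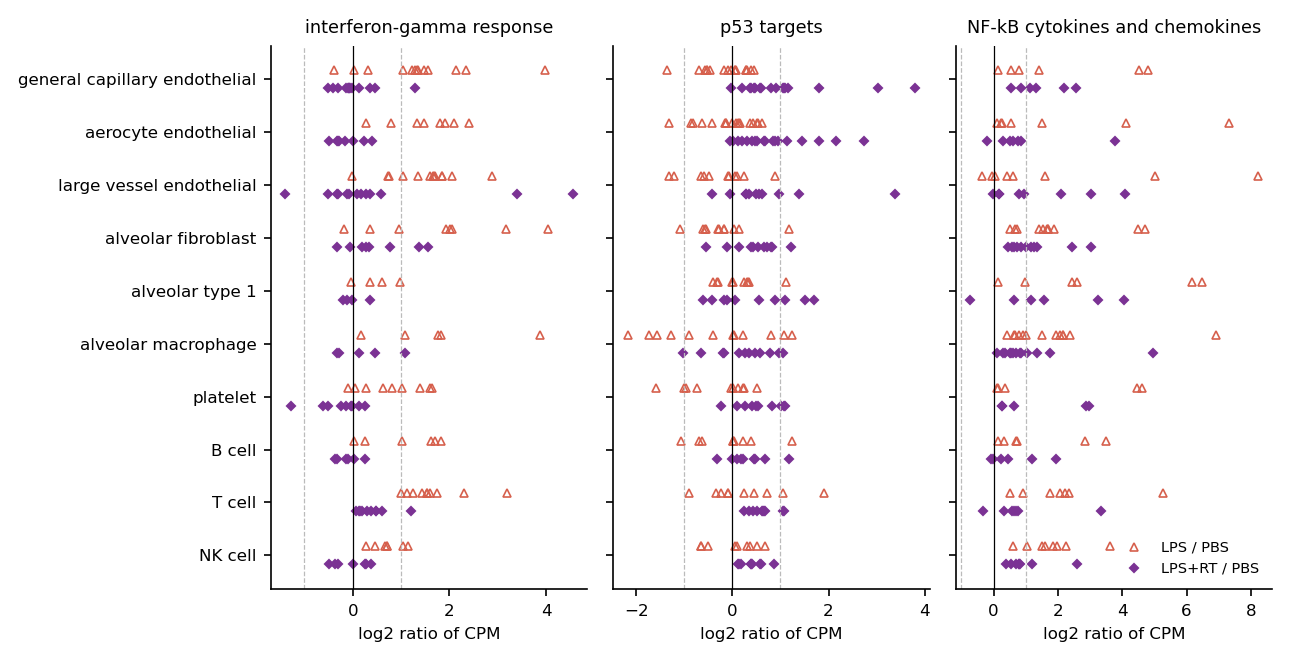
Log2 ratio of CPM over PBS for each measured member of 3 gene lists in 10 cell types, as open triangles for LPS and filled diamonds for LPS+RT, with dashed lines at 2-fold. Interferon-gamma genes in LPS+RT gather around 0 while those in LPS reach beyond 1 in most types, p53 targets lie at or to the right of 0 in LPS+RT in both capillary types, and NF-kB genes in LPS+RT lie between 0 and the LPS points in most types.

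General capillary cells had 60 genes at least 2-fold higher in LPS+RT than in PBS (0.879% of those tested) and 16 lower (0.234%), and 95.2% were within 1.5-fold. Interferon-gamma response genes were at the PBS level: 12 of 13 measured members were within 1.5-fold, with a median log2 ratio of -0.07, where LPS had 10 of 13 higher and a median of 1.34. Gbp2, a guanylate-binding GTPase that attacks intracellular pathogens, was at 67.7 CPM in LPS+RT, 70.2 in PBS, 355 in LPS and 68.0 in PBS+RT. Its relatives Gbp4 (58.4 CPM in LPS+RT, 61.8 in PBS and 274 in LPS) and Gbp5 (18.3, 13.5 and 106) had the same order of groups, LPS far above the rest. The exception was Cxcl10, a chemokine for activated T cells, at 30.8 CPM in LPS+RT, 12.6 in PBS, 198 in LPS and 14.7 in PBS+RT, 2.45-fold above PBS (1.92 to 3.15) and far below LPS.

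The promoters of 4 of these genes are shown because they hold the letters of known interferon response elements. Each is the run of 250 bases before the gene's start from RefSeq on build GRCm38.p6, on the gene's own strand (the next 30 bases were found in a GENCODE transcript of the gene for 3 of the 4, not for Gbp7), in capitals where it matches GAAANNGAAA (the interferon-stimulated response element, ISRE) or TTCNNNGAA (the gamma-activated site, GAS) on either strand. Gbp2 is at chr3:142620413-142620662 and Gbp7 at chr3:142530086-142530335, both on the plus strand. Igtp, a GTPase of the same defense system, is at chr11:58199306-58199555 on the plus strand, and Cxcl10 at chr5:92348890-92349139 on the minus strand.
Gbp2: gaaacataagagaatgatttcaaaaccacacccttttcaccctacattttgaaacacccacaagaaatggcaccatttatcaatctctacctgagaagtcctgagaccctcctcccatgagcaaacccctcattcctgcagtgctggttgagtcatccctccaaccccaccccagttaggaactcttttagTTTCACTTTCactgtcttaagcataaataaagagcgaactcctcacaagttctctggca
Gbp7: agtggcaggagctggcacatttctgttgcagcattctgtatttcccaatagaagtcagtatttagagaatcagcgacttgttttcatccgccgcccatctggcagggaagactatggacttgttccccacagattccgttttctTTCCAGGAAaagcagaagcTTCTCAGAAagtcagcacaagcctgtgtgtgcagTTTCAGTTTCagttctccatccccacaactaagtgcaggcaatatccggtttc
Igtp: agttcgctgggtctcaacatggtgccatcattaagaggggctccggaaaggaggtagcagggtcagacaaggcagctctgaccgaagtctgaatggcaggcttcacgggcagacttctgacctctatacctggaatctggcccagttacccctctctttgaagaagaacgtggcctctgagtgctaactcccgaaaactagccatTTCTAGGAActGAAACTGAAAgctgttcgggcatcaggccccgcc
Cxcl10: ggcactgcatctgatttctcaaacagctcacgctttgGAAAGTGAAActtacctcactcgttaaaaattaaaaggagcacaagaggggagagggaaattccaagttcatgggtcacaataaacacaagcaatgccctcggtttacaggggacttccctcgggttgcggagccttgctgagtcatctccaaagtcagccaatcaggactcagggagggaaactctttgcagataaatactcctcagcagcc
An ISRE match was present in 978 of 32851 promoters of this length (2.98%) and a GAS match in 2306 (7.02%). Of the 18 listed interferon-gamma genes, 13 had a promoter in the table, 10 with an ISRE match and 6 with a GAS match. Gbp2 and Cxcl10 each hold 1 ISRE match and no GAS match. In general capillary cells of LPS+RT Gbp2 was at the PBS level and Cxcl10, with the limit given above, was above it. These letters thus do not separate the pair. Gbp7 holds 1 ISRE and 2 GAS matches and was at 125 CPM in LPS+RT, 138 in PBS and 323 in LPS, and Igtp holds 1 of each and was at 35.1, 43.5 and 111 CPM. A match is a description of the letters and does not show that a factor bound there.

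Counts of class II antigen presentation genes in general capillary cells were at or below PBS. H2-Aa, a chain of the class II molecule, was at 58.7 CPM in LPS+RT, 101 in PBS, 315 in LPS and 48.3 in PBS+RT, 1.73-fold below PBS. H2-Ab1 was at 77.6 CPM against 130, with 377 in LPS, and Cd74, the invariant chain, at 89.9 against 121, with 963 in LPS. In interstitial macrophages H2-Ab1 was at 2300 CPM in LPS+RT and 3282 in PBS. The part of RNA of other cells in the capillary counts was not tested. Of 5 measured class II genes none was 2-fold from PBS in LPS+RT, and 2 were within 1.5-fold.

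The p53 targets were above PBS in the same cells, with 7 of 17 measured members at least 2-fold higher, none lower, and a median log2 ratio of 0.80, against -0.03 in LPS. Eda2r, a receptor of the TNF receptor family, was at 33.0 CPM in LPS+RT, 2.36 in PBS, 2.47 in LPS and 50.3 in PBS+RT, 14.0-fold above PBS (8.67 to 24.1). Gdf15, a stress-induced cytokine, was at 41.5 CPM in LPS+RT, 5.11 in PBS, 1.98 in LPS and 28.7 in PBS+RT. Sesn2, a stress sensor that restrains growth signaling, was at 34.0, 9.82, 9.14 and 32.3 CPM in the same order. For each of the 3 genes both irradiated libraries were above both others. Bax, which opens the mitochondrial membrane in apoptosis, was at 249 CPM in LPS+RT, 119 in PBS, 117 in LPS and 192 in PBS+RT. Cdkn1a was at 1500 CPM in LPS+RT, 799 in PBS, 554 in LPS and 1256 in PBS+RT, 1.88-fold above PBS (1.82 to 1.94), and Mdm2 at 114 against 74.9.

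Of 6 measured NF-kB genes in general capillary cells, 4 were at least 2-fold higher, of which 1 was left without members that stand low here and high in another type. Cxcl2, a neutrophil chemokine, was at 60.5 CPM in LPS+RT, 10.2 in PBS, 286 in LPS and 9.03 in PBS+RT, and the cytokine Il1b at 35.5, 7.86, 180 and 5.81. Tnfaip3, the ubiquitin editor A20 that dampens NF-kB, was at 142 CPM in LPS+RT, 56.7 in PBS, 150 in LPS and 88.7 in PBS+RT, 2.51-fold above PBS. Icam1, the adhesion molecule that holds leukocytes to the vessel wall, was at 623 CPM in LPS+RT, 285 in PBS, 496 in LPS and 366 in PBS+RT, 2.19-fold above PBS and the highest of the 4 libraries. Neutrophil markers summed to 105 CPM in these cells in LPS+RT, 74.5 in PBS and 586 in LPS, and Ly6g was at 0 in LPS+RT. Their part in the Cxcl2 and Il1b counts was not tested.

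The gene named by the largest fold below PBS was Cyp1a1, the xenobiotic-oxidizing target of the aryl hydrocarbon receptor, at 2.93 CPM in LPS+RT, 141 in PBS, 6.43 in LPS and 8.95 in PBS+RT, 48.1-fold below PBS (31.3 to 78.0). All 3 treated libraries were thus low for Cyp1a1 and PBS alone was high. Sox18, a factor of endothelial identity, was at 132 CPM in LPS+RT, 298 in PBS, 115 in LPS and 130 in PBS+RT, again with PBS alone high. The other 10 of 12 quiescence factors were within 1.5-fold, among them Klf2, the flow-induced factor, at 1550 CPM against 1348, with 920 in LPS. The highest ratios by rule were those of Zbtb16, a zinc-finger repressor (367 CPM in LPS+RT, 106 in PBS, 118 in LPS and 337 in PBS+RT), Dglucy (54.6, 14.7, 15.8 and 87.1) and the exocyst subunit Exoc4 (639, 242, 323 and 1020). In 5 of 5 clusters of these cells Cdkn1a, Bax, Eda2r, Gdf15, Tnfaip3 and Zbtb16 were above PBS in LPS+RT and Cyp1a1 and Sox18 below it, including the cluster (606 PBS cells and 227 LPS+RT cells) that has Cyp1a1 among its leading genes. Icam1 did not differ there, at 324 CPM against 321, and reached 2.56-fold in another cluster. The clusters were filled unequally, with 225 PBS and 540 LPS+RT cells in the cluster where Icam1 was at 949 CPM against 444.

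**Figure D4:**
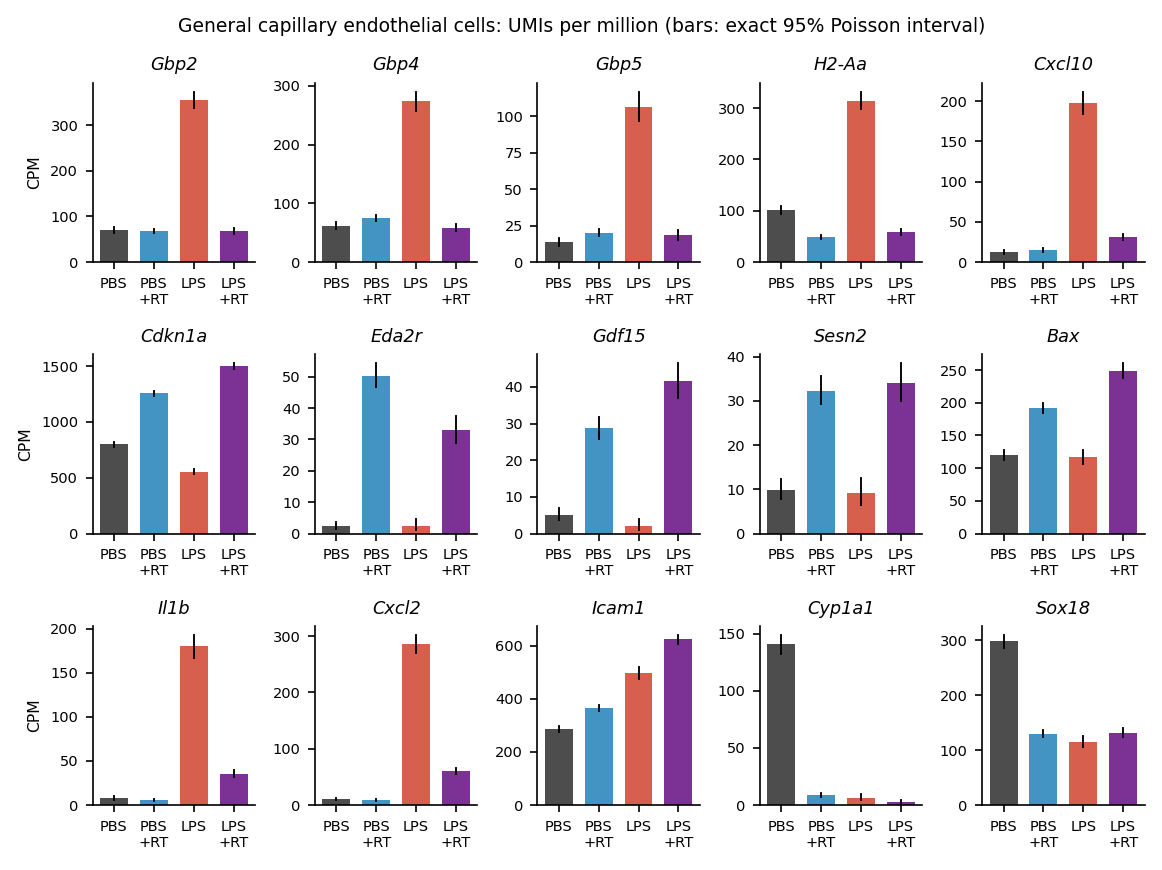
CPM of 15 genes in general capillary cells in the 4 libraries, with bars for the exact 95% Poisson interval of counting error. Gbp2 and Gbp4 in LPS+RT are level with PBS and Gbp5 is close to it while LPS is high, Eda2r, Gdf15, Sesn2 and Bax are high in both irradiated libraries, and Cyp1a1 (141 CPM) and Sox18 (298 CPM) are high in PBS alone.

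Aerocytes had 54 genes at least 2-fold higher (0.798%) and 18 lower (0.266%), and 93.9% of all genes tested were within 1.5-fold. All 8 measured interferon-gamma genes were within 1.5-fold of PBS, where LPS had 6 higher: Gbp4 was at 24.0 CPM in LPS+RT, 23.9 in PBS and 128 in LPS, and Cd274, the checkpoint ligand PD-L1, at 24.0, 29.1 and 125. The p53 targets had 5 of 18 higher, with Gdf15 at 144 CPM in LPS+RT, 21.5 in PBS, 13.8 in LPS and 103 in PBS+RT, 6.71-fold above PBS (5.34 to 8.52). Of 7 NF-kB genes only Cxcl2 was at least 2-fold higher, at 57.9 CPM against 4.19, with 668 in LPS. Cxcl2 stood low here and high in another type, and the part of RNA of other cells was not tested. Il1b was at 29.2 CPM against 17.3, with 300 in LPS. Cyp1a1 was at 4.14 CPM in LPS+RT, 354 in PBS, 7.19 in LPS and 18.6 in PBS+RT, 85.5-fold below PBS (51.6 to 153), so PBS alone was high here too. Zbtb16 (228 CPM against 74.5) and Exoc4 (739 against 264) were higher as in general capillary cells. All 4 measured class II genes were at least 2-fold lower, with H2-Ab1 at 25.1 CPM against 67.6 and 40.7 in LPS, but none was when each cell had equal weight, and none was left without members that stand low here and high in another type.

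Large vessel endothelium had 70 genes higher (1.10%) and 111 lower (1.75%), and 87.4% of all genes tested were within 1.5-fold. Of 13 interferon-gamma genes 10 were within 1.5-fold of PBS, but both chemokines of the list were higher. Cxcl10 was at 156 CPM in LPS+RT, 14.7 in PBS, 24.6 in LPS and 31.2 in PBS+RT, 10.6-fold above PBS, and Cxcl9 at 34.7 CPM against 1.47 (2 UMIs in PBS, ratio 23.6, interval 6.06 to 202), with 10.9 in LPS and 0 in PBS+RT. Here LPS+RT was above LPS for both, though LPS had only 46 of these cells, and in general capillary cells Cxcl10 was higher in LPS. Igtp was lower, at 17.4 CPM against 45.7. Selp, the P-selectin on which leukocytes roll, was at 857 CPM in LPS+RT, 444 in PBS, 434 in LPS and 1022 in PBS+RT, 1.93-fold above PBS, and Icam1 at 1748 against 1006. Of 8 NF-kB genes 3 were higher, Cxcl2 (50.1 CPM against 2.95, with 871 in LPS), Cxcl1 (66.5 against 8.10) and Il1b (34.7 against 8.10). All 3 stood low here and high in another type, and the part of RNA of other cells was not tested. Gdf15 (46.3 CPM against 4.42) and Bax (205 against 78.1) were the 2 higher of 11 p53 targets.

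Alveolar fibroblasts, the lipid-bearing mesenchymal cells of the alveolar wall, had 96 genes higher (1.40%) and 60 lower (0.875%). Their inflammatory genes were partly above PBS. Of 11 NF-kB genes 6 were at least 2-fold higher, and 4 of them were left without members that stand low here and high elsewhere. Cxcl1, a neutrophil chemokine, was at 789 CPM in LPS+RT, 310 in PBS, 995 in LPS and 259 in PBS+RT. The monocyte chemokine Ccl2 was at 163 CPM against 72.3, with 209 in LPS, and the cytokine Il6 at 344 against 171, with 544 in LPS. For these 3 genes LPS+RT lay between PBS and LPS.

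Acute phase genes of fibroblasts had 4 of 7 members higher. Over the 10 types only 2 of 14 higher acute phase pairs were left without members that stand low in the type and high in another. The part of RNA of other cells in the values below was not tested. Saa3, a serum amyloid made locally in inflamed tissue, was at 350 CPM in LPS+RT, 2.84 in PBS, 2462 in LPS and 45.6 in PBS+RT, 123-fold above PBS (73.3 to 226). Lcn2, an iron-siderophore-binding defense protein, was at 120 CPM against 20.1, with 936 in LPS, and Serpina3n, a protease inhibitor, at 635 against 278, with 824 in LPS. Of 10 matrix genes 2 were higher: Tnc, the matrix glycoprotein tenascin-C, was at 246 CPM in LPS+RT, 47.7 in PBS, 803 in LPS and 229 in PBS+RT, 5.16-fold above PBS, and Timp1, an inhibitor of matrix proteases, at 137 against 66.6. Tnc was above PBS in 1 of 3 clusters of fibroblasts and below it in the other two, with ratios from 0.164 to 6.56. Another 7 matrix genes were within 1.5-fold, with the collagen Col1a1 at 1421 CPM against 1038.

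Interferon-gamma genes of fibroblasts were within 1.5-fold of PBS in 5 of 8, where 90.4% of all genes tested in these cells were. Gbp2 was at 41.7 CPM in LPS+RT, 34.7 in PBS and 132 in LPS, and Cxcl10 at 110, 95.8 and 389. The GTPase Iigp1 was above PBS, at 248 CPM in LPS+RT, 96.0 in PBS and 864 in LPS, as was Gbp5, at 26.1, 8.93 and 147. Of 11 p53 targets 1 was higher, Cdkn1a, at 423 CPM in LPS+RT, 181 in PBS, 161 in LPS and 332 in PBS+RT, 2.33-fold above PBS and above it in 3 of 3 clusters. Named by rule, Lsmem1, a membrane protein with a leucine-rich stretch, was at 155 CPM in LPS+RT, 29.2 in PBS, 140 in LPS and 113 in PBS+RT. Lrat, which stores retinol as esters, was lower at 101 CPM against 246, with 109 in LPS, and the clock factor Npas2 was at 19.1 against 50.3. Sftpc, the surfactant gene of alveolar type 2 cells, was at 144 CPM in LPS+RT against 516 in PBS, and the type 2 marker sum at 221 against 738.

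Alveolar type 1 cells had 184 genes higher (3.74%) and 435 lower (8.85%), and only 70.4% were within 1.5-fold. These counts rested on few barcodes. Of the LPS+RT cells, 2 barcodes of over 20000 UMIs held 13.3% of the UMIs, with 33 of 35 UMIs of Mki67 and 45 of 50 of Top2a, both genes of dividing cells, and 398 of 630 of Chil3, a macrophage gene. A cluster of 14 PBS cells had no LPS+RT cell after the removal of likely doublets. With likely doublets kept, a cluster with the same leading genes (Scel and Rtkn2) held 35 PBS and 26 LPS+RT cells, so this imbalance depends on the doublet call. Without the cluster of 14 PBS cells and those barcodes (292 and 345 cells), 34 genes were higher (0.931%) and 103 lower (2.82%). Of 294 genes apart in LPS, 190 were back and 37 stayed different. In that set 3 of 10 p53 targets were higher. Over all type 1 cells Cdkn1a was at 278 CPM in LPS+RT, 85.2 in PBS, 106 in LPS and 267 in PBS+RT, 3.26-fold above PBS (2.51 to 4.27). The 4 measured interferon-gamma genes of that set were within 1.5-fold, and acute phase genes were higher in 4 of 5, with Lcn2 at 91.0 CPM against 6.01 and 448 in LPS over all type 1 cells. Saa3 was at 108 CPM in LPS+RT and at 0 in PBS, at least 35.9-fold higher against a floor of 3 UMIs. Most higher acute phase pairs of the types compared stood low in the type and high in another (2 of 14 were left). The part of RNA of other cells here was not tested. The genes named by rule were Kcnip4, Top2a and Mki67 above PBS and Ccn1 (103 CPM against 528) and Malat1, an RNA of the nucleus (2843 against 13074, with 24756 in LPS), below it. Without the PBS cluster of 14 cells these lows did not hold: in the cluster of 345 PBS and 294 LPS+RT cells, Malat1 was at 2843 CPM against 1932 and Ccn1 at 103 against 140. Cdkn1a was 2.48-fold above PBS there.

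Platelets had 21 genes higher (0.430%) and 241 lower (4.93%), and 81.4% of all genes tested were within 1.5-fold. These barcodes also carried RNA of other types, with general capillary markers at 2321 CPM in LPS+RT and 2566 in PBS and alveolar type 2 markers at 886 and 1623, and the part of that RNA in the values below was not tested. The p53 targets had 3 of 10 higher, Cdkn1a at 401 CPM in LPS+RT, 192 in PBS, 115 in LPS and 428 in PBS+RT, Phlda3, an inhibitor of AKT signaling, at 189 against 88.4, and Bax at 309 against 154. Scd1, which desaturates fatty acids, was at 122 CPM in LPS+RT, 431 in PBS, 249 in LPS and 47.9 in PBS+RT, 3.54-fold below PBS. Of 9 interferon-gamma genes 7 were within 1.5-fold and 1, Gbp4, was lower. Slc6a4, the serotonin transporter by which platelets load serotonin, was back, at 60.9 CPM in LPS+RT, 81.9 in PBS and 19.7 in LPS.

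Alveolar macrophages had 136 genes higher (2.15%) and 77 lower (1.22%), and of the 10 types with at least 100 cells they kept the smallest share of LPS-raised genes at the PBS level. Of 16 measured cell-cycle genes 15 were at least 2-fold higher. Mki67, a marker of dividing cells, was at 136 CPM in LPS+RT, 20.2 in PBS, 384 in LPS and 21.5 in PBS+RT, and Top2a, which untangles replicated DNA, at 104, 10.4, 202 and 14.7. Cells with at least 10 UMIs of cell-cycle genes were 290 of 799 in LPS+RT (36.3%, 33.0 to 39.7), 91 of 641 in PBS (14.2%, 11.6 to 17.1), 145 of 212 in LPS (68.4%) and 25 of 682 in PBS+RT (3.67%). Thinned to 10000 UMIs per cell, with at least 5 such UMIs, the shares were 32.0% in LPS+RT, 13.4% in PBS and 54.1% in LPS, leaving out 45, 66 and 42 shallower cells.

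Different clusters held most alveolar macrophages of the 2 libraries. Cluster 17 held 557 LPS+RT and 56 PBS cells, with 162 from LPS and 13 from PBS+RT, and cluster 5 held 210 and 538, with 10 and 656. Within cluster 17, 73 genes were higher and 35 lower, and 7 of 18 cell-cycle genes were higher. Within cluster 5, 16 genes were higher and 12 lower, and none of 3 measured cell-cycle genes was. With clusters given the same weight in both libraries, 2 cell-cycle genes were at least 2-fold higher in place of 15. The genes apart in LPS also differed by cluster: of 252 genes apart in LPS, 231 were back within cluster 5 (only 10 LPS cells) and 4 stayed different, and of 268 within cluster 17, 120 were back and 63 stayed.

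Cytokine genes of alveolar macrophages stood apart from PBS in 4 of 13 NF-kB members. Cxcl3, a neutrophil chemokine, was at 327 CPM in LPS+RT, 10.5 in PBS, 1260 in LPS and 6.18 in PBS+RT, 31.3-fold above PBS, Cxcl2 at 1118, 443 and 1254 in the first 3, and Il1b at 353, 173 and 668. All 4 stood at under 1/5 of their level in another type. The genes named by rule were AA467197 (126 CPM in LPS+RT, 4.36 in PBS and 190 in LPS), the monocyte chemokine Ccl9 (459, 43.8 and 651) and Wfdc17 (404, 51.7 and 593), each nearer to LPS than to PBS. Below PBS were Fabp1, a fatty-acid-binding protein of these cells, at 147 CPM in LPS+RT, 443 in PBS, 42.7 in LPS and 448 in PBS+RT, and Txnip, which restrains glucose uptake, at 72.9, 236, 46.8 and 181. Within the 3 clusters of these cells the ratios of the following genes were smaller than over the whole type. They were 6.50 to 19.7 for Cxcl3, 3.41 to 7.28 for AA467197 (29.0 over the type), 1.91 to 4.74 for Wfdc17 (7.81) and 3.51 to 4.87 for Ccl9 (10.5). Il1b was 1.16 to 1.79, below 2-fold in each cluster, and Fabp1 was at 0.658 to 0.673, about 1.5-fold below PBS against 3.01-fold over the type. Hspa1b, a heat-shock chaperone, was at 23.3 CPM against 109, but on the log2 scale its ratio went from -2.22 to 0.10 with clusters given equal weight.

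Of 14 identity genes of alveolar macrophages, 8 were within 1.5-fold of PBS, 2 higher and 1 lower, where 88.2% of all genes tested in these cells were within 1.5-fold. Chil3, a chitinase-like protein, was at 8015 CPM in LPS+RT, 10700 in PBS and 6005 in LPS, and Pparg, the factor that sets this identity, at 217, 296 and 170. Ctsk, a lysosomal protease, was higher at 923 CPM against 318, with 903 in LPS, and its ratio ran from 0.935 to 2.14 within the 3 clusters. Ear1 (542 CPM in LPS+RT, 647 in PBS and 135 in LPS) and Gdf15 (107, 120 and 26.4) were back at the PBS level over the whole type. Within the 3 clusters the ratio ran from 1.08 to 1.29 for Ear1. For Gdf15 it ran from 0.0911 to 1.45, above PBS in 1 cluster and below it in 2. Cdkn1a, higher in capillary cells, was at 421 CPM in LPS+RT, 485 in PBS, 163 in LPS and 732 in PBS+RT here. Glycolytic genes were higher in 4 of 13, with the mutase Pgam1 at 268 CPM against 114.

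Interstitial macrophages, with 71 cells in PBS and 231 in LPS+RT and a median of 9178 and 16268 UMIs per cell, had 287 genes higher (5.60%) and 341 lower (6.66%). Alternative-activation genes were mostly below PBS: of 10 measured members 8 were at least 2-fold lower and 1, Arg1, was higher. Cd163, the scavenger receptor for hemoglobin, was at 29.8 CPM in LPS+RT, 341 in PBS, 5.41 in LPS and 259 in PBS+RT, 11.4-fold below PBS, and the lectin Mgl2 at 14.6, 432, 32.9 and 192. Folr2, a folate receptor, was at 63.4 CPM in LPS+RT, 429 in PBS, 26.8 in LPS and 139 in PBS+RT. For all 3 genes both inflamed libraries were below both others, and PBS+RT lay between them and PBS. Cd163 and Folr2 are also markers of the type, and Mgl2 of dendritic cells. The PBS cells sat in other clusters in part, and in cluster 25 alone (196 LPS+RT and 45 PBS cells) 9 of 10 were lower.

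Other genes of interstitial macrophages differed in both directions. Fn1, the matrix protein fibronectin, was at 710 CPM against 64.2, and all 4 measured matrix genes were higher. None of 14 NF-kB genes was higher and 4 were lower, with Ccl2 at 176 CPM in LPS+RT, 1234 in PBS, 382 in LPS and 1407 in PBS+RT. H2-Ab1 was at 2300 CPM in LPS+RT, 3282 in PBS, 785 in LPS and 1921 in PBS+RT, and none of 6 class II genes was 2-fold from PBS, where LPS had 5 lower. The p53 targets were higher in 5 of 12, with Bax at 251 CPM against 92.3 and Mdm2 at 249 against 97.6.

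**Figure D5:**
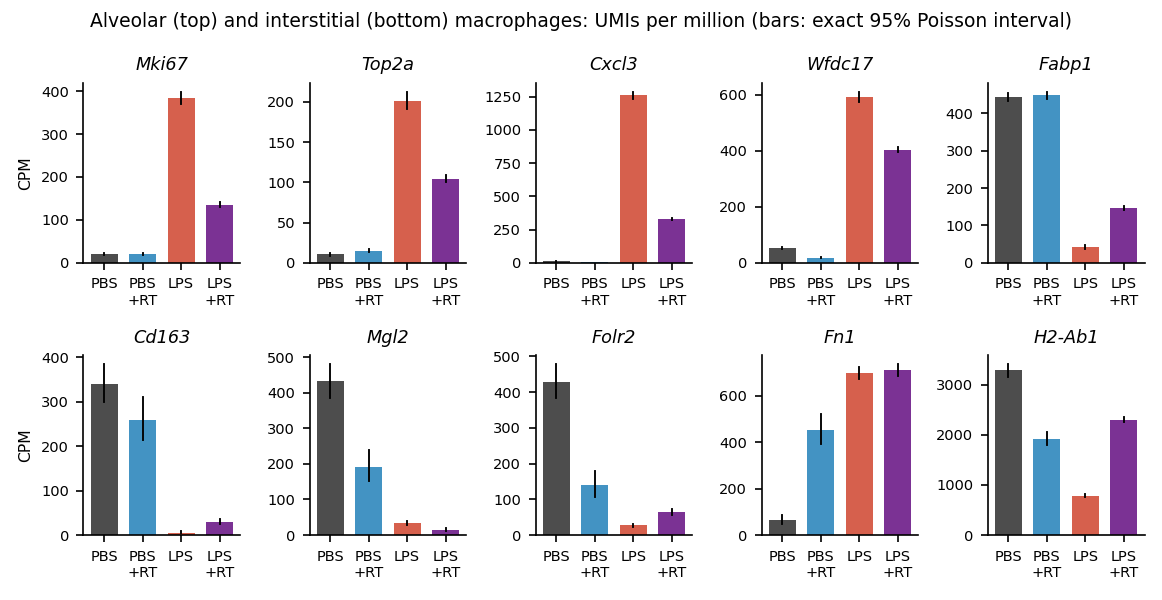
CPM of 5 genes in alveolar macrophages (top) and 5 in interstitial macrophages (bottom) in the 4 libraries, with bars for the exact 95% Poisson interval of counting error. In the top panels LPS+RT lies between PBS and LPS, as for Mki67 (136 CPM in LPS+RT, 20.2 in PBS and 384 in LPS), and in the bottom panels Cd163, Mgl2 and Folr2 are low in both LPS and LPS+RT.

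Neutrophils, with 69 cells in PBS, had 837 genes higher (19.0%) and 209 lower (4.75%). Cxcl2 was at 13483 CPM in LPS+RT, 3519 in PBS and 24183 in LPS, the chemokine Ccl3 at 2845, 224 and 7472, and Cd274 at 389, 54.2 and 950. For these 3 genes LPS+RT lay between PBS and LPS. Interferon-gamma genes were higher in 8 of 10 and p53 targets in 8 of 12, with Cdkn1a at 829 CPM in LPS+RT, 170 in PBS and 544 in LPS. Within cluster 27, which held 47 PBS and 93 LPS+RT neutrophils, only 1 of 3 interferon-gamma genes was higher, and 108 genes were higher and 75 lower. S100a8, a calcium-binding protein stored by neutrophils, was at 23871 CPM in LPS+RT, 57689 in PBS and 14774 in LPS.

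Classical monocytes, the blood precursors of inflammatory macrophages, had 120 genes higher (2.06%) and 174 lower (2.99%), and 84.5% of all genes tested were within 1.5-fold. Of 8 interferon-gamma genes 5 were within 1.5-fold of PBS and none was higher, where LPS had 7 higher. Gbp2 was at 26.3 CPM in LPS+RT, 20.9 in PBS and 195 in LPS, and the factor Irf1 at 74.7, 59.2 and 313. Cxcl10 was below PBS, at 22.8 CPM in LPS+RT, 150 in PBS and 335 in LPS. NF-kB genes were higher in 5 of 12, with Cxcl2 at 914 CPM against 402.

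T cells had 57 genes higher (0.947%) and 19 lower (0.316%), and 92.4% of all genes tested were within 1.5-fold. Ifng, which encodes interferon-gamma, was at 27.2 CPM in LPS+RT, 10.1 in PBS, 347 in LPS and 15.2 in PBS+RT, 2.70-fold above PBS (1.82 to 4.11). The chemokine Xcl1 was at 47.2 CPM in LPS+RT, 14.4 in PBS and 257 in LPS. The cluster with Xcl1 and Ifng among its leading genes held 112 LPS+RT and 60 PBS cells. Ifng was above PBS in 3 of 3 clusters of T cells, at ratios of 1.43 to 3.70 where PBS had counts. Xcl1 was above PBS in 2 clusters and below it in 1, with a ratio of at most 1.81 where PBS had counts. The part of the cluster mix in the values over all T cells was not tested. Of 10 interferon-gamma response genes 8 were within 1.5-fold of PBS, where LPS had 10 of 10 higher, with Gbp2 at 27.2 CPM in LPS+RT, 22.3 in PBS and 110 in LPS. Il22, a cytokine of epithelial defense, was at 300 CPM in LPS and at 1 UMI in each of LPS+RT and PBS. All 8 naive-lymphocyte genes were within 1.5-fold. Hist1h1b, a linker histone made in dividing cells, was at 80.7 CPM in LPS+RT, 18.9 in PBS, 210 in LPS and 84.7 in PBS+RT, and Cdkn1a at 60.5 against 28.7.

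NK cells had 84 genes higher (1.43%) and 45 lower (0.765%), and 88.5% of all genes tested were within 1.5-fold. All 7 interferon-gamma response genes and 8 of 9 cytotoxic genes were within 1.5-fold of PBS, with the pore-forming Prf1 at 978 CPM in LPS+RT, 1040 in PBS and 1290 in LPS. The exception was Ifng, at 129 CPM in LPS+RT, 69.0 in PBS and 456 in LPS, 1.87-fold above PBS. B cells had 34 genes higher (0.552%) and 47 lower (0.764%), and 91.5% of all genes tested were within 1.5-fold. All 6 interferon-gamma genes and all 8 class II genes were within 1.5-fold, with Irf1 at 54.8 CPM in LPS+RT, 68.4 in PBS and 209 in LPS. Crip1, a LIM-domain protein, was at 332 CPM in LPS+RT, 853 in PBS, 359 in LPS and 495 in PBS+RT, 2.57-fold below PBS (2.38 to 2.78), with PBS the highest of the 4. Myadm (28.7 CPM against 79.1) and Pdlim1 (33.2 against 71.2) were lower too.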

How the data were processed

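Lung cells of 4 mouse libraries (PBS, PBS+RT, LPS and LPS+RT, 1 each) were profiled with the 10x 3′ kit. The authors deposited unnormalized counts of UMIs for 32285 genes in every barcode. Per the file headers they come from Cell Ranger 7.0.1. The submitters' processing notes also list Seurat 4.3.0, R 4.2.2 and the mouse build mm10. The handling of intron reads is not given in the sources used here. The labels give all libraries the same batch, and no label says that mice were separate, so the spread between animals is unknown.

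All later steps used Python 3.11.15 with pandas 2.3.3, scipy 1.17.1, scikit-learn 1.9.0, matplotlib 3.10.9, numpy 2.4.6, python-igraph 0.11.9 and leidenalg 0.10.2. The 4 libraries were pooled for clustering, with no correction for library (2000 variable genes, 30 components, 15 neighbors, Leiden resolution 1.5, 49 clusters). Doublets were scored against simulated ones, as Scrublet does, and a fixed expected number per library was removed (7.69% of LPS+RT, 6.79% of PBS), after a threshold between modes had marked almost none; 45.3% and 40.3% of simulated doublets scored above the threshold used. Clusters were named from 31 marker lists by at least 3 markers, with thresholds and the merging of dendritic classes set after the clusters were seen. The names are rebuilt and are not the submitters' own.

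UMIs were summed per library and type. Ratios have exact conditional binomial intervals and shares exact Clopper-Pearson intervals (95%). A gene at 0 was set to 3 counts for a lower bound. The types, 23 lists (292 genes) and rules were chosen with earlier results of these data known. Named are the 3 highest, 3 lowest and 3 back genes of each type with at least 200 cells in both libraries (10 CPM added to both values, at least 50 CPM and 30 UMIs), without mitochondrial, ribosomal, hemoglobin, immunoglobulin, T cell receptor, small RNA and unnamed gene models, markers of unrelated types and genes below 1/5 of their level elsewhere; 2 to 4 members of each described list, and a fixed set of genes from Cdkn1a to Cyp1a1. Some genes that these rules pick are not reported here. Other genes were picked after their values were seen. Promoters are from RefSeq (GRCm38.p6). The steps were tested on simulated data. Alternatives were other naming, scaling, minimums, weights and doublet treatment.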

Additional observations from a re-analysis of the deposited data

How the results depend on the processing

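No paired analysis was possible because each group is 1 library, and for the same reason no replicate could be left out. The ratio of shares of all cells, LPS+RT over PBS, was 0.910 for alveolar fibroblasts and 1.03 when each cell was named by its own highest marker score, and 0.828 for general capillary cells, 0.976 with such naming and 1.01 at clustering resolution 3. As shares of endothelial, mesenchymal and epithelial cells these ratios were 1.16 and 1.05, so the direction of both small differences depends on the choice. For neutrophils the ratio was 7.62 and at resolution 3 it was 4.54. Genes at least 2-fold apart over the 10 types were 1865, 3537 with no minimum of CPM and 451 at 100 CPM. At 100 CPM, 778 of the 1435 pairs back at the PBS level and 278 of the 477 that stayed different were left, as were 13 of the 71 interferon-gamma pairs near PBS, 11 of the 25 higher p53 pairs, 11 of the 29 higher NF-kB pairs, 7 of the 14 higher acute phase pairs, 3 of the 15 higher cell-cycle genes of alveolar macrophages and 1 of the 4 lower class II genes of aerocytes; a stricter minimum tests fewer genes. Without members that stand low in the type and high in another, the NF-kB count was 5, the acute phase count 2 and the aerocyte class II count 0, and the last was also 0 with each cell weighted equally. With clusters given the same weight in both libraries, the cell-cycle count of alveolar macrophages was 2, and the log2 ratio changed sign for Hspa1b in alveolar macrophages (0.10) and for Malat1 in alveolar type 1 cells (0.56); the cause was not tested. Of 379 alternatives for 133 values of named genes, 352 kept direction and side of 2-fold, 17 fell below it, 8 passed it and 2 changed sign. The count of 13 types within 1.5-fold of PBS stayed within 1.5 times under the alternatives run. Depth limits the types with few cells: 46 large vessel cells in LPS, 69 neutrophils and 71 interstitial macrophages in PBS.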

Other observations

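Genes of the circadian clock, chosen after their values were seen, are given here as values with no list fixed for them; over all genes tested 1.31% were at least 2-fold higher and 1.75% lower. Dbp, a factor driven by the clock, was at least 2-fold higher in 2 of 3 types where it was measured, and so was the repressor Nr1d1, also known as REV-ERB-alpha. Nr1d2, its relative, was above PBS in 7 of 7 types, in 1 of them at least 2-fold. Arntl, which encodes BMAL1, was at least 2-fold lower in 1 of 10 types, and Npas2 in the 1 type where it was measured. Clock was within 1.5-fold in 10 of 12 types, and so was Tsc22d3, a target of glucocorticoids, in 11 of 13. Per1 was at least 2-fold apart in 0 of 11 types, Per2 in 0 of 3, Tef in 0 of 5 and Ciart in 0 of 1, and Cry1 was higher in 1 and lower in 2 of 10. The time of day at which lungs were taken is not given in the sources used here.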
